A study of Saccharomyces cerevisiae with 21 samples.

Results

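Wildtype Saccharomyces cerevisiae from cultures at an optical density (OD600) near 5 was compared with wildtype from cultures near 0.4. The comparison holds 6 of the 21 libraries of the series: all 3 labelled wildtype at high OD and all 3 labelled wildtype at low OD. The series asked how a humanized U1C protein, a U1 snRNP component encoded by YHC1, and the splicing factor Luc7 change the transcriptome. Per its design text the high-density libraries came first and are described as post-log phase, and the low-density libraries were made in a later repeat. RNA was extracted with hot phenol, treated with DNase and selected for poly-A tails, in both groups alike. The labels name both YPD and dropout media for growth and do not tie either to a group. Density, experiment and any difference in medium or handling therefore cannot be told apart here. No genotype beyond wildtype and no strain background is given for these libraries, and no label says that the 3 replicates of a group were separate cultures, so p-values here reflect only how much libraries of a group vary.

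As background, budding yeast in glucose medium ferments first, and represses the genes of respiration, gluconeogenesis and high-affinity sugar uptake while glucose lasts. As cultures become dense, glucose and then other nutrients run down. Textbook changes on the way into the diauxic shift and stationary phase are a fall of ribosome-producing genes and a rise of glucose-repressed, storage carbohydrate and stress genes. Amino acid and purine synthesis genes respond to the supply of those compounds in the medium through the activators Gcn4 and Bas1.

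The 6 libraries held 29.6–45.5 M assigned reads at high density and 29.1–30.4 M at low density. Pearson correlations of log2 CPM (read counts scaled to a common library size) were 0.983–0.997 within a group and 0.966–0.980 between groups. Replicate 2 at high density stood closest to the low-density libraries, at 0.977–0.980, and had its own group at 0.990 and 0.983, so results that rest on it are given with its value. Estimated fragment lengths also differed, with a median gap between coding length and effective length of 207, 235 and 247 bases at high density and 260, 270 and 248 at low density. Their part in the results was not tested beyond a correction for coding length and GC content. Both groups carried the same strain markers. No library of either group had a read from LEU2 or LYS2, where 3 reads would be 0.0659–0.103 CPM, which covers counting error only, and URA3 had 472–609 CPM at high and 636–696 CPM at low density, before TMM scaling. The a-cell receptor gene STE2 had 856–994 and 395–486 CPM and the alpha-cell receptor gene STE3 5.23–5.40 and 5.34–5.90 CPM. Other markers of these cell types were mixed. BAR1 of a cells had 327–359 and 159–186 CPM, but the a-factor genes MFA1 and MFA2 had only 0.0671–1.49 CPM over both groups. The alpha-cell genes MF(ALPHA)2 and SAG1 had 3.3–5.51 and 28.1–47.3 CPM, and MF(ALPHA)1 had 0.0988–0.659 CPM. YHC1 did not pass the test (log2 fold change −0.03 ± 0.08, estimate ± SE, edgeR's quasi-likelihood test, adjusted p = 0.76). In bulk RNA a share of cells and a level per cell cannot be told apart, and all values are relative to the other transcripts of the same library.

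Of 6150 coding sequences with enough reads to test among the 6571 counted, edgeR's quasi-likelihood test called 1287 higher at high density (20.9%) and 1393 lower (22.7%) at a Benjamini-Hochberg adjusted p below 0.05. With a change of 2-fold or more as a second condition 167 were higher (2.72%) and 124 lower (2.02%). The median log2 fold change over all tested sequences was 0.01, with quartiles of −0.21 and 0.29, and 93.8% lay within 2-fold of no change. The libraries of the groups did not overlap in 2966 sequences (48.2%). The split between higher and lower depended on the scale. With library totals alone in place of composition factors (TMM) it was 2418 and 610, and in limma on log2(TPM + 1) it was 2290 and 564, and both scales moved the median of all sequences to 0.20. Changes below are on the TMM scale. A list whose median lies between 0 and −0.20 is therefore lower only relative to the median transcript, and where it matters the counts on library totals are given beside it. Lists a little below −0.20 also came near 0 on the other scales. On library totals and in TPM the medians were −0.05 and −0.01 for ribosome biogenesis and −0.03 and 0.03 for tRNA synthetases. For the cell wall integrity list they were −0.07 and 0.01. CPM from here on are TMM normalized over the 12 wildtype and humanized libraries, and values of 3 libraries are given in the order of replicates 1, 2 and 3.

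Among the transcripts that rose most were those of glucose and amino acid transporters, of WSC4, and of enzymes of purine, one-carbon and arginine synthesis. Those that fell most included the cell wall integrity kinase gene SLT2, the calmodulin-dependent kinase gene CMK2 and genes of the cell surface. HXT7, for a high-affinity glucose transporter, had 417, 790 and 354 CPM at high and 42.1, 35.4 and 40.5 CPM at low density, 13.2-fold higher (+3.72 ± 0.27, adjusted p = 5.81e-07, chrIV:1154216-1155928, R64 build). WSC4, of a family of membrane proteins that includes cell wall stress sensors, had 257, 199 and 253 CPM at high and 17.7, 18.8 and 20.8 CPM at low density, 12.3-fold higher (+3.63 ± 0.14, adjusted p = 3.94e-09, chrVIII:48763-50580). In both genes the lowest high-density library lay several-fold above the highest low-density library. At the other end, YOR385W, of unknown role, had 26.2, 24 and 26.8 CPM at high and 178, 191 and 219 CPM at low density and fell 7.62-fold (−2.93 ± 0.09, adjusted p = 6.7e-10, chrXV:1065043-1065915). CMK2 had 67.7, 82.5 and 68.4 CPM at high and 490, 561 and 523 CPM at low density and fell 7.21-fold (−2.85 ± 0.09, adjusted p = 6.7e-10, chrXV:294777-296120). In each of these genes the high-density libraries again lay far from the low-density ones. Also among the 12 that rose most, with a mean of 10 CPM or more, were YFR052C-A, which was not matched to the reference and rose from 0.915–2.05 to 8.86–32.4 CPM (+3.65 ± 0.61), and GCV1, ADE17, ARG1, ARG3, GCV2, ARG4, AGP1 and HXT4, described below. Among the 12 that fell most were SRL3 (−2.77), DIA1 (−2.76), BAG7 (−2.66), the cell wall gene NCW2 (−2.62), SLT2 (−2.58) and TOS3, for a kinase that activates Snf1 (−2.51). PRM7, a pheromone-regulated gene (−2.49), the serine and threonine deaminase gene CHA1 (−2.44), TDA6 (−2.40) and RCR1, for an ER membrane protein tied to chitin content (−2.32), completed them.

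**Figure D1:**
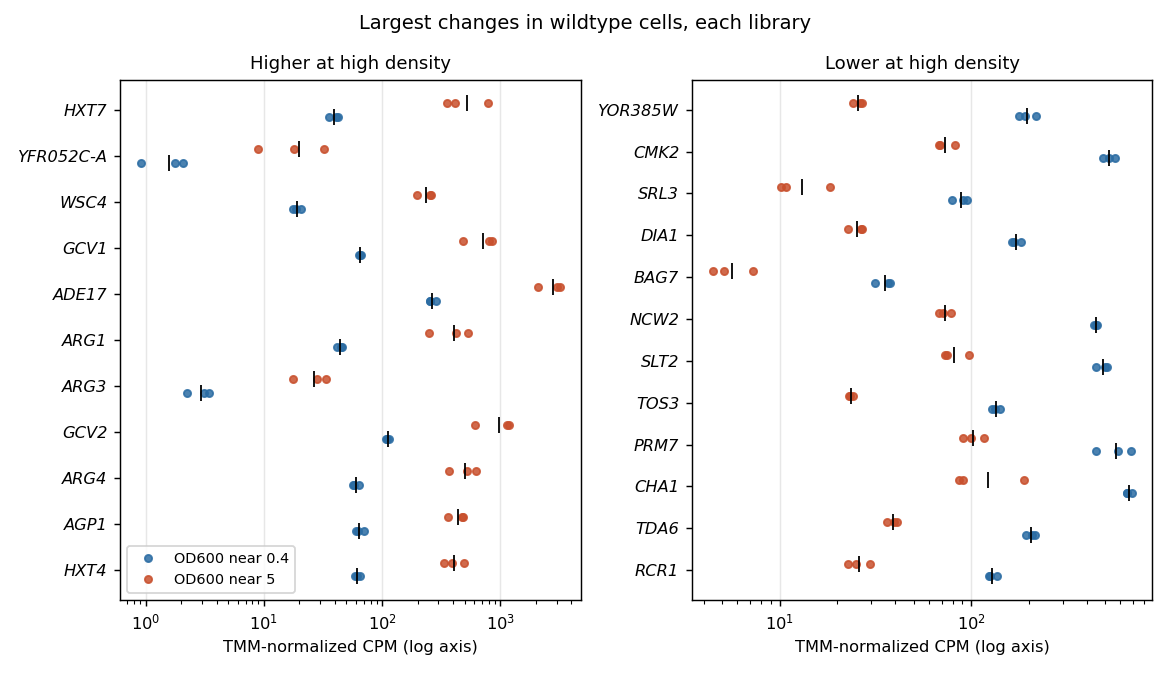
TMM-normalized CPM on a log axis of genes among the 12 that rose most (left) and the 12 that fell most (right) of called genes with a mean of 10 CPM or more. Each point is 1 wildtype library, red at OD600 near 5 and blue near 0.4, and the black tick is the group mean; the red and blue points do not overlap in any gene shown, which the choice of genes required.

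Purine synthesis and the one-carbon metabolism that feeds it rose almost as a whole. Of 20 genes on a list drawn up after these values were seen, 16 rose, 2 fell and 2 did not pass the test, with a median log2 fold change of 1.5 and 11 members higher by 2-fold or more. ADE17, for the enzyme of the last steps to inosine monophosphate, had 3028, 2105 and 3193 CPM at high and 252, 255 and 286 CPM at low density, 10.5-fold higher (+3.39 ± 0.15, adjusted p = 1.23e-08, chrXIII:507502-509280). GCV1, a subunit of the glycine decarboxylase that yields one-carbon units, had 850, 480 and 796 CPM against 66.5, 64.8 and 63.5 CPM, 10.9-fold higher (+3.45 ± 0.17, adjusted p = 3.19e-08, chrIV:484163-485365). Replicate 2 was the lowest of the high-density libraries in both genes and still lay far above every low-density library. GCV2, another subunit of the same complex (+3.13 ± 0.20), MTD1, a methylenetetrahydrofolate dehydrogenase (+2.59 ± 0.13), and SHM2, the cytosolic serine hydroxymethyltransferase (+2.48 ± 0.13), followed. ADE2 (+2.36 ± 0.11), ADE1 (+2.20 ± 0.10), ADE13 (+1.88 ± 0.12) and ADE4, for the first committed step (+1.84 ± 0.11), rose too. Paralogs of the same steps did not move together. ADE16, the partner of ADE17, fell (−0.18 ± 0.06, from 388, 405 and 382 to 347, 350 and 339 CPM, adjusted p = 0.0216), a call lost without replicate 1 or 3 at high or 1 or 2 at low density and a value of 0.01 on library totals, and SHM1, the mitochondrial counterpart of SHM2, fell (−0.37 ± 0.07, adjusted p = 0.00074), though in TPM it had −0.11 and was not called. The activator gene BAS1 did not pass the test (+0.24, adjusted p = 0.0787) with all libraries and had 0.38 (adjusted p = 8.46e-05) without replicate 2 at high density and 0.43, again called, on library totals, while PHO2, for its partner, rose (+0.43). The list took 2.42, 1.76 and 2.51% of reads in the high-density and 0.630, 0.626 and 0.633% in the low-density libraries. That was a difference of 1.60 percentage points with no overlap (two-sided exact permutation p = 0.10, the smallest that 3 against 3 libraries allow). Since the list was drawn up on these values, neither the lack of overlap nor this p-value is independent support. The joint list of purine and pyrimidine synthesis, set before it, had 17 higher and 12 lower of 35 (median 0.17), or 20 and 6 on library totals. Pyrimidine synthesis, split off in the same way, had 1 gene higher and 4 lower of 9 (median −0.18).

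Promoter sequence is shown here for the genes that led this change, because many of them hold the letters TGACTC, the core that Gcn4 and Bas1 bind. The sequences are from RefSeq's R64 build, 5′ to 3′ on the gene's strand, in a window from 250 bases before to 50 after the coding start, and capitals mark TGACTC or its reverse complement GAGTCA.
ADE17: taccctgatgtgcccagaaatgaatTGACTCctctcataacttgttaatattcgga
GCV1: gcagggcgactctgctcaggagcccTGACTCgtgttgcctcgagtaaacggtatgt
GCV2: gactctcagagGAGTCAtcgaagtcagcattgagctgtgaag
MTD1: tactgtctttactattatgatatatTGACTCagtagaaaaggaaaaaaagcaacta
HIS4: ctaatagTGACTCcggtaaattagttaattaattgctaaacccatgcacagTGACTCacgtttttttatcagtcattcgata
ARG4: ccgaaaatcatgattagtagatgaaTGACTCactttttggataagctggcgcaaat
These lie at chrXIII:509427-509482 on the minus strand, chrIV:485478-485533 (minus), chrXIII:637250-637291 (plus), chrXI:590196-590251 (plus), chrIII:68502-68583 (minus) and chrVIII:141551-141606 (minus). The matches begin 177, 143, 239 and 174 bases before the coding start in ADE17, GCV1, GCV2 and MTD1, 243 and 199 bases before it in HIS4, and 179 in ARG4. On either strand TGACTC was present in 14 of the 20 promoters of the purine and one-carbon list (70.0%), 33 of 61 of amino acid synthesis (54.1%) and 479 of all 5894 promoters of the same length (8.13%). Among promoters of genes higher by 2-fold or more 35 of 141 held it (24.8%), and among those lower by 2-fold or more 13 of 120 (10.8%). These letters were not in the windows of ARG1, ARG3 and AGP1. A match is a description of sequence and was not tested as a binding site.

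Amino acid synthesis rose unevenly, with arginine and histidine genes far ahead. Of 61 genes 34 rose, 7 fell and 20 did not pass the test (median 0.32, and 15 higher by 2-fold or more), or 47 and 2 called on library totals. ARG1, argininosuccinate synthase, had 424, 248 and 536 CPM at high and 45.7, 45.2 and 41.7 CPM at low density, 9.11-fold higher (+3.19 ± 0.22, adjusted p = 4.98e-07, chrXV:219211-220473). Replicate 2 was again the lowest of the high-density libraries, and no high-density value came near the low-density ones. ARG4, argininosuccinate lyase, rose 8.48-fold (+3.08 ± 0.15), and ARG3, ornithine carbamoyltransferase, rose 8.99-fold (+3.17 ± 0.26) from 2.25–3.46 CPM. ARG56, as the reference names the gene of 2 linked steps to ornithine, rose less (+1.88 ± 0.18). CPA1, another arginine gene, rose only 1.25-fold (+0.32 ± 0.10, adjusted p = 0.0173), with 361, 294 and 386 CPM against 299, 277 and 261 CPM, so that its groups overlapped and leaving out replicate 1 or 3 at high or 3 at low density ended the call (0.23–0.30). Over 12 arginine genes listed after the values were seen, 8 rose and none fell (median 1.19); the other 4 were ARG8 and the regulators ARG80, ARG81 and ARG82, at −0.05 to +0.17 and not called, except that ARG8 had 0.32 without replicate 2 at low and ARG80 0.22 without replicate 3 at high density, both then called, and on library totals (0.37 and 0.36) both were called too.

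HIS4, a trifunctional histidine enzyme, had 1527, 1129 and 1840 CPM against 233, 256 and 273 CPM, 5.9-fold higher (+2.56 ± 0.14, adjusted p = 1.02e-07, chrIII:65934-68333), with no overlap. HIS5 (+1.73 ± 0.12), HIS3 (+1.22 ± 0.11) and HIS7 (+1.13 ± 0.10) rose, whereas HIS6 fell (−0.41 ± 0.10, adjusted p = 0.00575), a call lost on library totals (−0.21). SER3, which starts serine synthesis (+1.45 ± 0.22), the asparagine synthetase gene ASN1 (+1.45 ± 0.15) and LEU4 (+1.41 ± 0.11) also rose. ARO3, for the first step of aromatic synthesis, rose as well (+1.19 ± 0.12). Other genes of the list were lower, with ASN2 lowest (−0.46, not called in TPM at −0.19) and PRO1 (−0.27) and THR4 (−0.28) losing their calls on library totals (−0.08 and −0.09). In the branch to homoserine HOM6 fell (−0.41) and HOM3 (+0.74) and HOM2 (+0.49) rose. The RNA of GCN4, whose protein output is set mainly by translation, had 1174, 1262 and 1110 CPM against 1329, 1587 and 1208 CPM and did not pass the test (−0.22 ± 0.09, adjusted p = 0.0752), although it did without replicate 2 at high (−0.27) or 3 at low density (−0.30). Sulfate assimilation and methionine genes had 2 higher and 8 lower of 24 (median −0.07), a balance that turned to 8 and 6 on library totals. Their lowest members were MET14 (−1.03), of adenylylsulfate phosphorylation, and CYS3 (−1.0), of cysteine formation.

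Genes that good nitrogen sources repress were higher. Of 28 tested 17 rose and 2 fell (median 0.47, 9 higher by 2-fold or more). The general amino acid permease gene GAP1 had 73.6, 60.4 and 75.8 CPM at high and 27.9, 26.8 and 26.7 CPM at low density (+1.36 ± 0.08, adjusted p = 1.29e-07), and the urea transporter gene DUR3 had 42.9, 30.2 and 45.1 against 12.4, 14.7 and 13.4 CPM (+1.54 ± 0.14, adjusted p = 3.72e-06). Neither gene's groups overlapped. The activator genes GAT1 (+1.55 ± 0.08) and UGA3 (+1.58 ± 0.14), the ammonium permease gene MEP2 (+1.10 ± 0.08) and the allantoin degradation gene DAL3 (+1.33 ± 0.19) rose. Classical members DAL5 (+0.07 ± 0.06, adjusted p = 0.35) and PUT4 (+0.12 ± 0.18, adjusted p = 0.61) did not pass the test, and UGA1 fell (−0.40 ± 0.08, not called in TPM at −0.14). On library totals DAL5 was called, at 0.26. Of 20 amino acid permease genes 8 rose and 4 fell. AGP1, a broad-range permease, had 482, 360 and 472 CPM against 70.6, 62.2 and 59.6 CPM, 6.83-fold higher (+2.77 ± 0.12, adjusted p = 1.23e-08, chrIII:76018-77919). The catabolic deaminase gene CHA1, which serine and threonine induce, went the other way, with 90.9, 189 and 85.8 CPM against 651, 687 and 652 CPM (−2.44 ± 0.24, adjusted p = 7.95e-06).

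Glucose uptake changed transporter by transporter, not as a family. Of 19 hexose transporter and sensor genes 5 rose and 5 fell (median −0.04, 7 and 2 on library totals), and the family took 0.470 ± 0.0433% of reads at high and 0.464 ± 0.0244% at low density (mean ± SD, n = 3, exact permutation p = 0.80). HXT7, HXT4 and HXT6 rose together with the glucose sensor genes SNF3 (+0.37 ± 0.07) and RGT2 (+0.31 ± 0.08), and HXT2, HXT1, HXT10, HXT5 and HXT3 fell. The last 3 of these were small or low: HXT10 (−0.97 ± 0.32) had under 4 CPM and lost its call without replicate 1 or 3 at high or 1 at low density (−0.65 to −0.93), HXT5 (−0.28 ± 0.08) lost it without replicate 1 at high density (−0.21), and HXT3 (−0.24 ± 0.08) lost it without any 1 of 5 wildtype or any humanized low-density library (−0.20 to −0.24). On library totals none of these 3 was called. HXT4, of intermediate to high affinity, had 392, 497 and 336 CPM against 59.5, 64.7 and 60.9 CPM (+2.73 ± 0.19, adjusted p = 4.6e-07). HXT2, of high affinity too, had 266, 646 and 320 CPM against 1147, 954 and 995 CPM (−1.33 ± 0.26, adjusted p = 0.00152), and HXT1, the low-affinity transporter of glucose-rich medium, 397, 378 and 446 against 802, 767 and 865 CPM (−1.0 ± 0.08, adjusted p = 1.16e-06). HXT4, HXT2 and HXT1 had groups apart, and replicate 2 was the highest high-density library for HXT7, HXT4 and HXT2. HXT6 (+1.63 ± 0.37) shares 95.7% of its 31-base stretches with HXT7 or other sequences, so how reads divide between the pair is uncertain, and its change was 0.90 without replicate 2 at high density. Hexokinases swapped in direction. HXK1 had 198, 366 and 181 CPM at high and 49.3, 36.5 and 38.4 CPM at low density (+2.59 ± 0.23, adjusted p = 3.27e-06), and HXK2, the form of rapid fermentation that also takes part in glucose repression, 831, 917 and 905 against 1919, 1900 and 1831 CPM (−1.09 ± 0.07, adjusted p = 1.4e-07). Per length HXK2 remained the more abundant, at a mean of 401 TPM against 118 TPM for HXK1 at high density and 723 against 16.8 TPM at low density.

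Genes of gluconeogenesis and the glyoxylate cycle changed in both directions, and the larger changes were falls. Of 20 such genes 4 rose, 6 fell and 10 did not pass the test (median −0.04, 6 and 5 called on library totals). None rose by 2-fold, and 3 fell by 2-fold or more, beside 2.02% of all sequences. FBP1, fructose-1,6-bisphosphatase, had 6.82, 7.8 and 6.64 CPM at high and 6.62, 6.13 and 5.98 CPM at low density and did not pass the test (+0.18 ± 0.14, adjusted p = 0.296). PCK1, the carboxykinase of the first committed step, had 8.36, 8.67 and 10.2 against 11, 8.92 and 10.2 CPM (−0.15 ± 0.13, adjusted p = 0.374). The groups of PCK1 overlapped, and those of FBP1 lay just apart; on library totals FBP1 was called, at 0.37. ICL1, isocitrate lyase, rose by 1.25-fold (+0.33 ± 0.06, adjusted p = 0.00116), while the lactate transporter gene JEN1 (+0.05 ± 0.10) and the acetyl-CoA synthetase gene ACS1 (−0.07 ± 0.08) did not pass the test (adjusted p = 0.711 and 0.514). ADH2, the glucose-repressed alcohol dehydrogenase that consumes ethanol, fell (−0.83 ± 0.14, adjusted p = 0.000649), and so did CIT2, the peroxisomal citrate synthase (−1.53 ± 0.20). ADH2 is on a list of 27 other glucose-repressed genes, of which 7 rose, HXK1 among them, and 3 fell (median −0.01, 8 and 2 on library totals). These shares of 25.9 and 11.1% stand beside 20.9 and 22.7% of all sequences. Of the regulators of these genes, HAP4 (−0.05 ± 0.14), CAT8 (+0.21 ± 0.10) and ADR1 (+0.10 ± 0.10) did not pass the test, and on library totals CAT8 (0.40) and ADR1 (0.29) did. SIP4, for another regulator, was called higher (+0.73). MTH1, a corepressor of transporter genes, rose (+1.53 ± 0.16, 48.8, 68.3 and 43.3 against 18, 18.8 and 18.9 CPM), and MIG2, a repressor that acts in high glucose, fell (−0.59 ± 0.08). Letters of the carbon source response element, to which Cat8 and Sip4 bind, were in 10.6% of promoters of genes higher by 2-fold or more, in 15.8% of those lower and in 10.3% of all promoters.

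**Figure D2:**
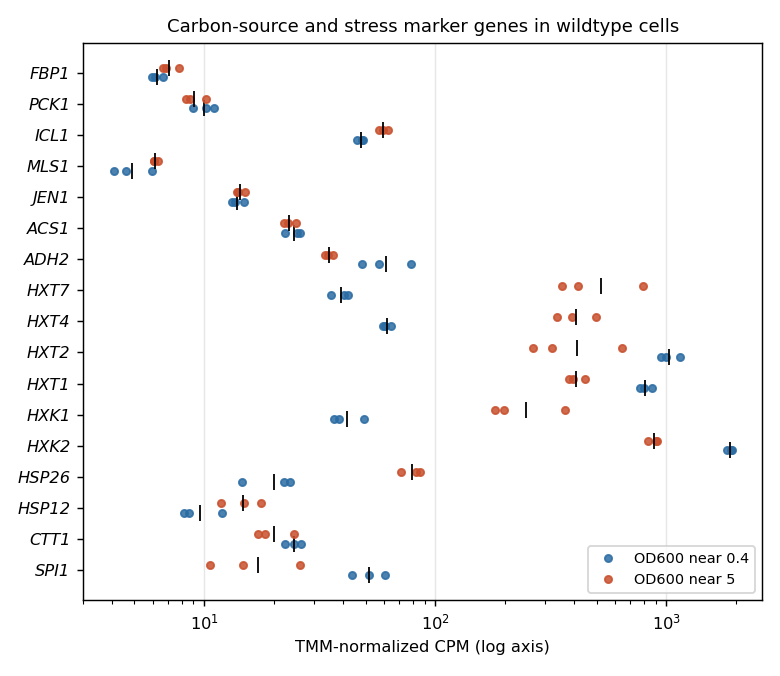
TMM-normalized CPM on a log axis of genes of carbon-source use and of stress, 1 point per wildtype library (red at OD600 near 5, blue near 0.4) with the mean as a tick. HXT7, HXT4, HXK1 and HSP26 are higher at high density with no overlap, HXT2, HXT1, HXK2 and SPI1 are lower, and PCK1, JEN1, ACS1 and CTT1 overlap.

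Fermentation genes fell. Of 23 glycolysis and fermentation genes 17 fell and 2 rose (median −0.42), or 11 and 2 on library totals, and the pathway took 10.9 ± 0.330% of reads at high and 13.7 ± 0.536% at low density (n = 3, no overlap, exact permutation p = 0.10). PDC1, the main pyruvate decarboxylase, had 9557, 11333 and 9902 CPM at high and 21914, 23391 and 20986 CPM at low density (−1.11 ± 0.10, adjusted p = 3.83e-06). GPD2, of glycerol formation, fell 2.27-fold (−1.18 ± 0.07), and ENO2 (−0.76 ± 0.10), PFK1 (−0.68 ± 0.10), TDH3 (−0.48 ± 0.10) and the pyruvate kinase gene CDC19 (−0.48 ± 0.10) fell as well. TDH1, a glyceraldehyde-3-phosphate dehydrogenase of slow growth, rose with 615, 592 and 527 CPM against 262, 300 and 234 CPM (+1.12 ± 0.11, adjusted p = 9.87e-06). TDH and ENO copies share 26.3–50.6% of their 31-base stretches, which makes the division of reads between them uncertain. In the pentose phosphate pathway 7 of 11 genes fell and none rose (median −0.44, 5 on library totals), led by GND1 (−0.85 ± 0.07).

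Over 36 pairs of enzymes or proteins, with the form of rapid growth named first where one is known, the first gene fell in 22 and rose in 5, and the second rose in 12 and fell in 9. Of all sequences 20.9% were called higher and 22.7% lower. In many pairs the first gene was the more abundant, as with HXK2, CDC19 and PDC1. The change over all sequences had a Spearman correlation of −0.43 with the level at low density. Whether the pair counts go beyond that trend was not tested. In 7 pairs the first fell and the second rose: HXK2 and HXK1, CDC19 and PYK2, TDH3 and TDH1, PGM1 and PGM2, NTH1 and NTH2, ACC1 and HFA1, and NDE1 and NDE2. PGM2, a phosphoglucomutase gene, had 49.2, 105 and 42.9 CPM against 38.4, 38.7 and 34.2 CPM (+0.82 ± 0.26, adjusted p = 0.0226), a rise that replicate 2 led: without it the value was 0.31 (adjusted p = 0.0333), and without replicate 1 or 3 at low density the call was lost (0.85 and 0.77). Per length PGM1 remained the more abundant, at 62.3 against 25.7 TPM at high and 67.6 against 12.3 TPM at low density. The calls of ACC1 (−0.24 ± 0.09) also needed nearly all libraries (−0.18 to −0.24 with 1 left out). In TPM the falls of CDC19 (−0.22) and PGM1 (−0.11) were not called. The subunit gene COX5B, for the cytochrome oxidase form of low oxygen, had 57.8, 66.4 and 45.2 CPM at high and 15.7, 17.3 and 14.2 CPM at low density (+1.85 ± 0.16, adjusted p = 2.24e-06, chrIX:155222-155765). COX5A, for the aerobic form, rose less (+0.32 ± 0.10, adjusted p = 0.0185), a call lost without replicate 1 or 2 at high or 1 at low density (0.24–0.31). Per length COX5A and COX5B had means of 146 and 134 TPM at high density and 110 and 35.6 TPM at low density. The cell wall mannoprotein gene CWP2 rose (+1.65 ± 0.22, 2547, 2228 and 1800 against 653, 752 and 688 CPM), while CWP1 did not pass (+0.47 ± 0.28, adjusted p = 0.195).

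**Figure D3:**
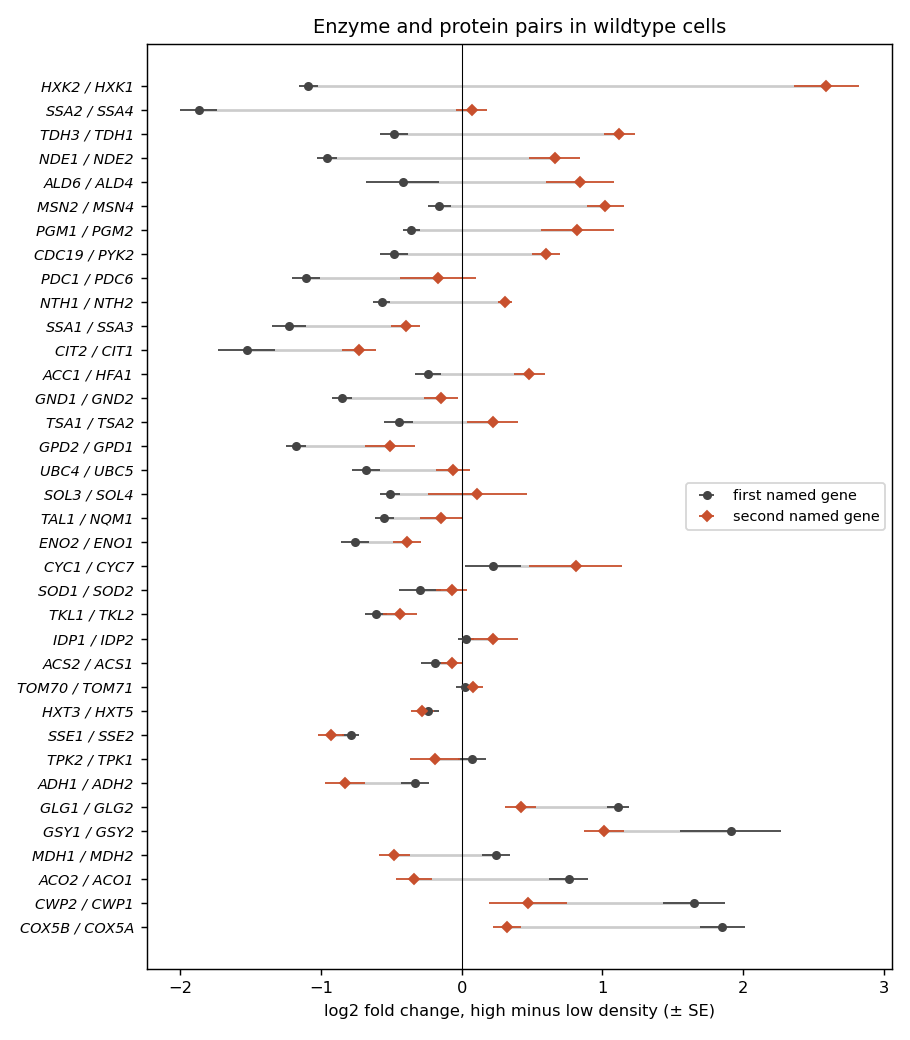
Log2 fold changes (high minus low density, with their SE) of both genes of 36 pairs, grey circles for the first named gene and red diamonds for the second, sorted by their difference. HXK2 and HXK1 lie furthest apart, at −1.09 and 2.59, and COX5B and COX5A are at the opposite end, at 1.85 and 0.32.

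Genes of glycogen storage rose. On a joint list of 18 genes of glycogen and trehalose 9 rose and 6 fell (median 0.25), or 10 and 3 on library totals. The glycogen synthase genes GSY1 (+1.91 ± 0.36) and GSY2 (+1.01 ± 0.14), the phosphorylase gene GPH1 (+1.54 ± 0.24), the branching enzyme gene GLC3 (+1.28 ± 0.29) and the primer gene GLG1 (+1.11 ± 0.08) rose. GSY1 had 48.7, 146 and 45.5 CPM at high and 22.6, 23.2 and 18.3 CPM at low density, so replicate 2 stood far above its group, and GSY2 had 88.1, 134 and 93 against 50.8, 51.5 and 54.7 CPM. The groups of both genes were apart, and without replicate 2 the changes of GSY1 and GLC3 were 1.14 and 0.68, still called. TPS1 (−0.64 ± 0.15, adjusted p = 0.00532), of trehalose synthesis, and the trehalase gene NTH1 (−0.57 ± 0.06) fell, while NTH2, its paralog, rose (+0.31 ± 0.05).

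Nuclear genes of mitochondrial respiration rose modestly. In the respiratory chain and ATP synthase 19 of 37 rose and 1 fell (median 0.42), and the list took 0.390 ± 0.0293% of reads at high and 0.318 ± 0.0154% at low density (n = 3, no overlap, exact permutation p = 0.10). QCR10 (+1.0 ± 0.21) and QCR6 (+0.90 ± 0.17), of the cytochrome bc1 complex, were among them. The external NADH dehydrogenase gene NDE1 was the 1 that fell (−0.96 ± 0.07). In the tricarboxylic acid cycle 8 of 16 rose and 1 fell (median 0.22), the latter being CIT1, the mitochondrial citrate synthase (−0.73 ± 0.12, adjusted p = 0.000532), while SDH2, of succinate dehydrogenase, was among the 8 (+0.48 ± 0.09). Mitochondrial ribosome genes rose in 32 of 68 and fell in 1 (median 0.30), and import genes had 6 higher and 5 lower of 34 (median 0.05), or 16 and 0 on library totals. The CCAAT box was in 81.1% of promoters of the respiratory list and 43.7% of all promoters.

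Heat shock and general stress genes did not rise together. Of 43 general stress genes 10 rose, 11 fell and 22 did not pass the test (median 0.06, 15 and 6 called on library totals). These shares of 23.3 and 25.6% are near the 20.9 and 22.7% of all sequences, and the list's share of reads was 0.242 ± 0.0570% at high and 0.290 ± 0.00667% at low density, with overlap. That difference of −0.0483 points was −0.0811 and −0.0293 without replicate 2 or 3 at high density. HSP26, a small heat shock protein, had 85.9, 82.4 and 71.2 CPM at high and 23.6, 22.3 and 14.6 CPM at low density (+1.99 ± 0.17, adjusted p = 2.13e-06), and HSP12, of the plasma membrane, 17.6, 14.9 and 11.8 against 12, 8.58 and 8.2 CPM (+0.62 ± 0.18, adjusted p = 0.0139). The groups of HSP26 were apart, and those of HSP12 overlapped in 1 library. The call of HSP12 was lost without replicate 1 at high or 2 or 3 at low density (0.48–0.56) and in TPM (0.56). HSP104, the disaggregase, had 154, 228 and 158 CPM at high and 785, 751 and 822 CPM at low density, 4.37-fold lower (−2.13 ± 0.14, adjusted p = 3.46e-07, chrXII:88623-91349). HSP30, of the plasma membrane (−1.99 ± 0.18), the cell wall gene SPI1 (−1.61 ± 0.25) and HSP42 (−1.24 ± 0.29) fell too, the last by 1.83 on the log2 scale without replicate 2 at high density. The catalase T gene CTT1 did not pass the test (−0.29 ± 0.14, adjusted p = 0.103), though it did without that library (−0.46). MSN4, for one of the activators of these genes, rose (+1.02 ± 0.13) and MSN2, for the other, did not pass (−0.16 ± 0.08, adjusted p = 0.104). Among 26 stationary-phase genes tested 3 rose, namely RGI1, SNZ1 and SNO1, and 2 fell. RGI1 (+1.24 ± 0.35) had 30.3, 76.6 and 20.4 CPM against 19.1, 18 and 17 CPM, so that replicate 2 carried most of the difference, and without it the change was 0.50 (adjusted p = 0.0155). SNO1 (+0.50 ± 0.17) lost its call without replicate 1 or 3 at high or 1 or 2 at low density (0.38–0.48).

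The stress response element AGGGG, which Msn2 and Msn4 bind, was in 30 of 44 promoters of the general stress list (68.2%) and 21.9% of all promoters. It was in 25.5% of promoters of genes higher by 2-fold or more and 27.5% of those lower. The HSP104 promoter is shown since this gene fell while holding 2 copies, in capitals, which begin 220 and 172 bases before the coding start (chrXII:88378-88480, plus strand).
HSP104: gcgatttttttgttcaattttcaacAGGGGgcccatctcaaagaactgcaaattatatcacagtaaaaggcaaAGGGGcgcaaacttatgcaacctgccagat
The window of HSP26 did not hold these letters.

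Chaperone genes on the list of Hsp90, Hsp70 and chaperonin genes fell nearly without exception. The list does not hold SSA4 or the small heat shock gene HSP26, which rose. Of 25 genes of the Hsp90, Hsp70 and chaperonin list 23 fell and none rose (median −0.49, 19 on library totals), HSP60 and CCT6 being the 2 that did not pass the test. Both passed in DESeq2 (−0.18 and −0.16) and without 1 of the high-density libraries (replicate 2, −0.25, and replicate 3, −0.19), CCT6 also without humanized replicate 2 at high density (−0.16). The share of reads on the list was 1.85, 1.93 and 1.93% at high and 2.88, 2.76 and 2.86% at low density. HSP82, the inducible Hsp90, had 61.2, 92.4 and 58.9 CPM at high and 325, 284 and 286 CPM at low density (−2.08 ± 0.16, adjusted p = 1.07e-06), and its constitutive partner HSC82 1040, 1327 and 1098 against 2876, 2829 and 2999 CPM (−1.33 ± 0.09, adjusted p = 3.09e-07). The Hsp70 genes SSA2 (−1.87 ± 0.13) and SSA1 (−1.23 ± 0.12) fell, though 63.9 and 63.6% of their 31-base stretches are shared with other genes. Off the list, SSA4 did not pass the test (+0.07 ± 0.11, adjusted p = 0.612) but was called higher in TPM (0.34). The cochaperone genes STI1 (−1.16 ± 0.10) and YDJ1 (−0.79 ± 0.07) fell, and so did KAR2 of the endoplasmic reticulum (−0.90 ± 0.07).

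The cell wall integrity pathway runs from surface sensors through Pkc1 to the kinase Slt2 and the factor Rlm1, which activates cell wall genes and SLT2 itself. On a list of 39 such genes drawn up after values were seen, 20 fell and 7 rose (median −0.25, 14 and 11 on library totals), 10 of them lower by 2-fold or more. SLT2 had 73.1, 97 and 74.9 CPM at high and 502, 510 and 449 CPM at low density, 5.97-fold lower (−2.58 ± 0.10, adjusted p = 7.4e-09, chrVIII:168890-170344). NCW2, a cell wall protein gene, had 71.3, 78.5 and 67.8 against 456, 448 and 438 CPM (−2.62 ± 0.08, adjusted p = 6.7e-10, chrXII:540809-541573). In both genes every high-density library lay far under the low-density ones. The surface protease genes YPS3 (−2.19 ± 0.10) and YPS1 (−1.60 ± 0.11), PRM5 (−1.5 ± 0.12), the phosphatase gene PTP2 (−1.35 ± 0.08), PST1 (−1.24 ± 0.07), PIR3 (−1.16 ± 0.15) and RLM1 itself (−1.03 ± 0.10) fell. Upstream, PKC1 (−0.03) and the sensor gene SLG1 (−0.03) did not pass the test. The sensor gene MID2 fell (−0.67 ± 0.06), and WSC4 and GSC2, for the alternative glucan synthase (+0.86 ± 0.12), rose.

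Calcium signalling through calcineurin and its factor Crz1 had 12 of 22 genes lower and 3 higher on a list of the same origin (median −0.19, 7 and 8 on library totals). Besides CMK2, the calcineurin regulator gene RCN2 had 31.3, 40.2 and 29.4 CPM at high and 107, 116 and 104 CPM at low density (−1.70 ± 0.11, adjusted p = 2.27e-07), and CRZ1 59.9, 59.5 and 64.1 against 127, 126 and 133 CPM (−1.07 ± 0.05, adjusted p = 2.5e-08). The vacuolar calcium pump gene PMC1 fell as well (−0.73 ± 0.06). The genes of a catalytic and the regulatory subunit of calcineurin, CNA1 (+0.08) and CNB1 (+0.20), did not pass the test, though CNB1 did without replicate 3 (0.27) or humanized replicate 1 or 3 at high density (0.21), and on library totals both were called (0.27 and 0.39).

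Genes of ribosome production fell by small amounts on the TMM scale, and less or not at all on the other scales. Of 95 ribosome biogenesis genes 53 fell and 2 rose (median −0.24, none by 2-fold, and 16 and 5 on library totals). NSR1, for a nucleolar protein, had 1275, 1218 and 1268 CPM at high and 1845, 1798 and 1655 CPM at low density (−0.49 ± 0.07, adjusted p = 9.25e-05), and NSA1 was lowest (−0.54 ± 0.05). The group's share of reads overlapped, at 2.67 ± 0.218% and 2.82 ± 0.0783%, and the difference of −0.146 percentage points became −0.0219 and −0.225 without replicate 2 or 3 at high density. Its promoters held GATGAG, the PAC element, in 93.7% and AAAATTT, the RRPE element, in 95.8%, against 19.8 and 23.6% of all promoters. The NSR1 promoter is shown for its PAC element, whose reverse complement is in capitals (chrVII:807813-807868, minus strand).
NSR1: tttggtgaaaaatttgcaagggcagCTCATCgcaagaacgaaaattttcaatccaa
Ribosomal protein genes fell in 45 of 89 with an intron and 24 of 48 without, with 1 higher in each (medians −0.25 and −0.29), or 18 and 11 lower with 3 higher in each on library totals. Near-identical copies make single members uncertain. All ribosomal protein genes together took 15.5 ± 1.36% of reads at high and 16.7 ± 1.24% at low density, which overlapped (exact permutation p = 0.40). That difference of −1.2 points was −1.89 and −0.527 without replicate 2 or 3 at high density and −0.492 without replicate 2 at low density. In TPM the ribosomal protein share was 38.2 ± 1.18% at high and 41.6 ± 1.5% at low density, without overlap (exact permutation p = 0.10). Translation factors fell in 27 of 39 (13 on library totals), led by the elongation factor gene EFB1 (−0.92 ± 0.12, 1265, 1639 and 1298 against 2636, 2947 and 2374 CPM), and tRNA synthetases in 12 of 20 (5). Proteasome genes fell in 30 of 34 and none rose (median −0.35, 16 on library totals), with RPN12 lowest (−0.63 ± 0.07). RPN4, for the activator of proteasome genes, fell too (−0.35 ± 0.08, adjusted p = 0.00409), but on library totals it had −0.16 and was not called.

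Genes of iron uptake fell. Of 28 iron uptake genes 19 fell and 2 rose (median −0.52, 10 lower by 2-fold or more, and 18 and 2 on library totals). FET3, the multicopper oxidase of high-affinity uptake, had 463, 448 and 326 CPM at high and 939, 893 and 845 CPM at low density (−1.11 ± 0.13, adjusted p = 4.24e-05), and the reductase gene FRE1 98.4, 112 and 109 against 339, 398 and 331 CPM (−1.74 ± 0.15, adjusted p = 2.24e-06). FIT2, for a cell wall mannoprotein that retains siderophores, was lowest (−2.20 ± 0.38). FTR1, for the permease partner of Fet3, did not pass the test (−0.02 ± 0.08, adjusted p = 0.826). In the zinc list 7 of 10 fell and 1 rose (4 and 2 on library totals), with the transporter gene ZRT1 lowest (−0.70 ± 0.06). Phosphate genes were mixed, with 5 higher and 7 lower of 19, or 9 and 5 on library totals: PHO84 (+0.56 ± 0.09) and PHO5 (+0.92 ± 0.10) rose, and PHO11 (−1.18 ± 0.17) and PHO12 (−1.12 ± 0.12), near-identical acid phosphatase genes, fell. Ergosterol synthesis fell in 17 of 26 and rose in 1 (median −0.30, 8 and 3 on library totals), with MVD1 lowest (−0.72 ± 0.06). Antioxidant genes had 4 higher and 5 lower of 28 (10 and 2 on library totals), with the thiol peroxidase gene AHP1 lowest (−1.32 ± 0.19).

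Cell cycle and mating genes were higher. Of 31 G2 and mitosis genes 22 rose and 2 fell (median 0.44), and of 39 G1 and S phase genes 22 rose and 4 fell (median 0.23). The mitotic cyclin gene CLB1 had 267, 217 and 261 CPM at high and 64.9, 68 and 70.5 CPM at low density, 3.67-fold higher (+1.87 ± 0.08, adjusted p = 1.23e-08). Its partner CLB2 rose less (+0.60 ± 0.14), the S phase cyclin gene CLB6 rose (+1.30 ± 0.16), and CLN3, the G1 cyclin gene at the start of the cycle, fell (−0.71 ± 0.11, adjusted p = 0.000239). Of 21 mating genes 14 rose and 1 fell (median 0.84). The agglutinin genes AGA2 (+2.69 ± 0.37) and AGA1 (+1.5 ± 0.13), the cell fusion gene FUS1 (+1.20 ± 0.10) and the receptor gene STE2 (+0.89 ± 0.07) rose. AGA1 had 193, 198 and 207 CPM against 68, 54.6 and 89.2 CPM, with no overlap. Sporulation genes had 7 higher and 6 lower of 33, in opposite directions for IME1 (+0.72 ± 0.13) and IME2 (−1.23 ± 0.10), and SPS4 rose (+3.06 ± 0.21). Spliceosome genes had 16 higher and 10 lower of 82 (median 0.09, 39 and 1 on library totals), LUC7 being 1 of the lower ones (−0.31 ± 0.11, adjusted p = 0.0351), a call lost without replicate 1 or 3 at high or 2 or 3 at low density (−0.23 to −0.34) and on library totals (−0.12). Intron genes outside the cytosolic ribosome had 25 higher and 35 lower of 176, a balance that turned to 64 and 12 on library totals, with a median of −0.01 beside 0.01 over all sequences.

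**Figure D4:**
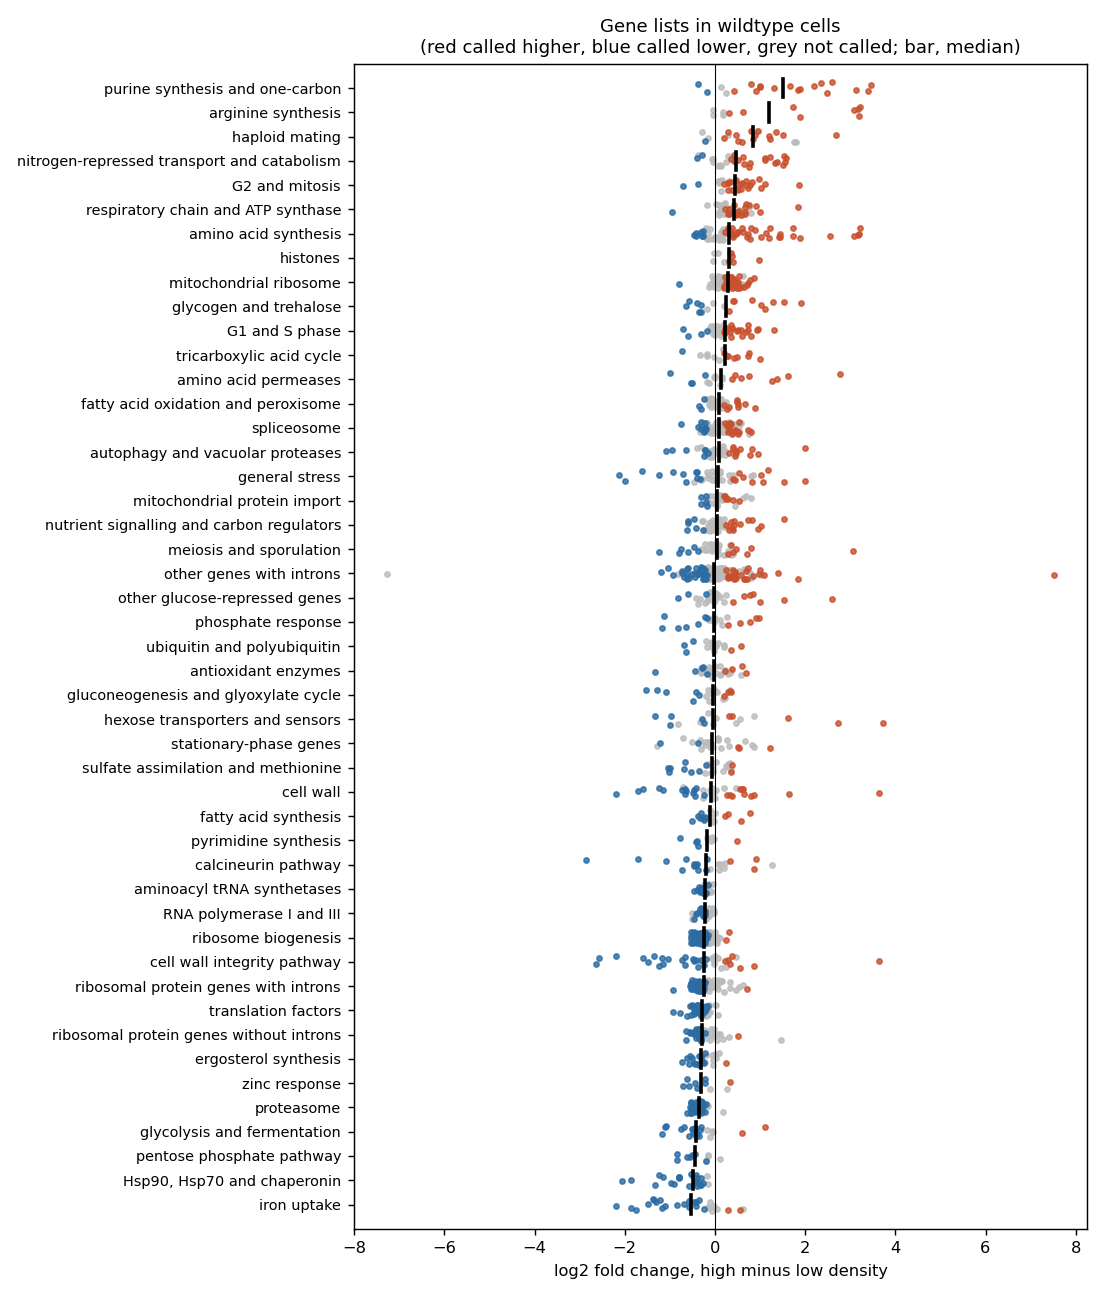
Log2 fold changes (high minus low density) of the tested members of each gene list, 1 point per gene, red where called higher, blue where called lower and grey where not called, with the list median as a bar. Lists run from purine and one-carbon genes (median 1.5) at the top to iron uptake (−0.52) at the bottom, and the grey and red points beyond −7 and 7 among other genes with introns are YBR219C and YIL177C, which have under 2 CPM in every library.

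The strain with humanized U1C, labelled h-yU1C and with 3 libraries at each density, gives a second look at density, at an OD600 near 8 against near 0.4, again with high-density libraries from the first experiment. Its different end density means that strain and density are not separated, and the difference of the changes below shares the wildtype libraries with the wildtype change. The test of the difference called 1098 sequences (17.9%), 605 with a more positive change in humanized cells (9.84%) and 493 with a more negative one (8.02%). Amino acid synthesis stood on the negative side, with 45 of 61 below 0 and 1 above, and its median change was −0.10 in humanized cells against 0.32 in wildtype. ARG1 had a log2 fold change of +0.82 in humanized cells, with 67.7, 86.1 and 70.4 CPM at high and 40.2, 45.1 and 41.7 CPM at low density, so the difference of changes was −2.37 ± 0.30 (adjusted p = 0.000312). HIS4 (−1.53 ± 0.19) differed in the same direction, with a change of +1.03 in humanized cells. Purine and one-carbon genes had medians of 1.5 in wildtype and 1.0 in humanized cells, with 9 of 20 differences called below 0 and 1 above.

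In the opposite direction, the fall of HSP82 was not seen in humanized cells (+0.04, 365, 334 and 270 CPM at high and 302, 323 and 319 CPM at low density, difference +2.11 ± 0.22, adjusted p = 0.000109). HSP26 (+3.86, difference +1.87 ± 0.23) and HSP12 (+2.34, difference +1.72 ± 0.25) had larger increases there. General stress genes had 14 of 43 differences called above 0 and 1 below, and respiratory genes 14 of 37 above and none below. Changes that did not differ at the threshold included SLT2 (−2.69 in humanized cells, difference −0.11 ± 0.14, adjusted p = 0.656), CMK2 (−3.0, −0.15 ± 0.12, adjusted p = 0.425), HXT7 (+3.96, +0.24 ± 0.34, adjusted p = 0.694) and GCV1 (+3.21, −0.24 ± 0.23, adjusted p = 0.529). Without wildtype replicate 2 at high density the differences of HXT7 (0.67) and GCV1 (−0.45) were called.

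**Figure D5:**
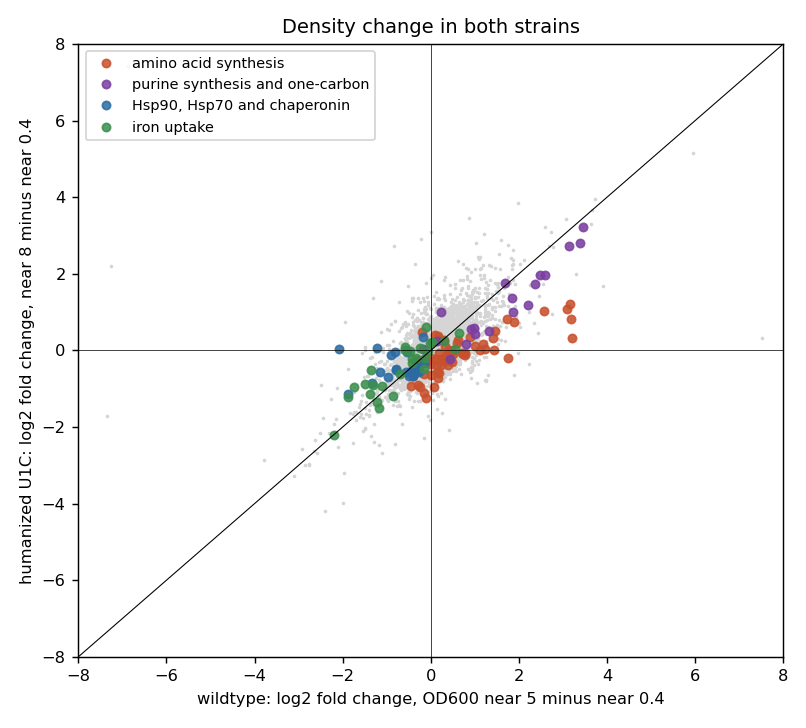
Log2 fold change between densities in wildtype (horizontal) and in humanized U1C cells (vertical), 1 point per tested sequence in grey, with 4 lists in colour and a line of equality. Most amino acid synthesis genes (red) lie under the line, with ARG1 at 3.19 and 0.82, and HSP82 of the chaperone list (blue) lies above it, at −2.08 and 0.04.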

How the data were processed

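Poly-A RNA of 21 libraries was measured, of which 6 (3 wildtype at high and 3 at low density) make the comparison and 6 humanized libraries enter the same fit. The authors deposited Salmon output per library, holding for each of 6571 coding sequences an estimated count of reads, made by Salmon from the reads, and TPM (a count scaled by effective length and library size). Per the submitters' processing notes, reads went through cutadapt and Salmon 1.9 with the sacCer3 build. The sources used here give neither the parameters nor cutadapt's version.

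From the deposited estimated counts, rounded to whole numbers, edgeR 4.0.16 (R 4.3.3) was used with its default filter on low counts, TMM factors and quasi-likelihood tests over 4 groups, and p-values were adjusted by Benjamini-Hochberg over all 6150 sequences tested. Calls needed an adjusted p below 0.05. The model assumes equal spread across the 4 groups. On simulated counts with 50 genes per fold, 82% of 1.5-fold, 100% of 2-fold and 4-fold and 94% of 0.5-fold changes were recovered. Of unchanged genes 0.19% were called. The simulation gave every gene the same spread, had no outlying library and changed far fewer genes than were called here. Its rates therefore check the code and are not error rates of these data. TPM served for comparing levels between genes and, with limma 3.58.1, as an alternative scale. DESeq2 1.42.0 and other settings were tried. Of the 6571 sequences 5906 were matched by identifier to RefSeq's R64 annotation, which gave names, positions, introns and 5894 promoters, and shared sequence was counted in 31-base stretches among matched coding sequences.

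The comparison and the gene lists were chosen with earlier results of these data known, and 5 lists (purine and one-carbon, pyrimidine, arginine, cell wall integrity, calcineurin) after their values were seen. Genes named are the 12 highest and 12 lowest called changes with a mean of 10 CPM or more, the members of the lists picked in advance with each list's extremes, both genes of each pair, and the 6 most negative and most positive differences between strains, of which 1 is not reported here. Other genes, among them most further members given as examples of a list, were chosen after their values were seen.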

Additional observations from a re-analysis of the deposited data

Results flagged for a closer look

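The density change differed between humanized and wildtype cells by edgeR's quasi-likelihood test of the difference itself, called at an adjusted p below 0.05, in the genes below, taken from the 6 most negative and 6 most positive called differences with a mean of 10 CPM or more. All values here are the humanized minus the wildtype log2 fold change, on 3 libraries per group. Among the most negative were ARG1 (−2.37), ARG4 (−2.01), RGI1 (−2.01), HSP30 (−1.99) and ARO5 (−1.98). RGI1 rests on wildtype replicate 2 at high density, where it had 76.6 CPM against 30.3 and 20.4 in replicates 1 and 3, and without that library the difference was −1.27 (adjusted p = 0.000841). ARO5 had 63.6, 52.6 and 66.9 CPM at high and 10.6, 13.9 and 9.64 CPM at low density in wildtype and 12.5, 15 and 15.2 and 10.4, 10.1 and 10.7 CPM in humanized cells. The most positive were YOR338W (2.68), HSP82 (2.11), HSP26 (1.87), ALD6 (1.72), HSP12 (1.72) and FRE7 (1.62). YOR338W fell in wildtype (37.6, 24.1 and 34.3 against 81, 74.9 and 81.8 CPM) and had 182, 207 and 191 against 73, 77.6 and 73.6 CPM in humanized cells. ALD6, a cytosolic aldehyde dehydrogenase gene, did not pass the test in wildtype (−0.42 ± 0.26), where replicate 2 at high density had 571 CPM and the others 235 and 245. Without that library its change was −0.97 (adjusted p = 5.62e-07), a called fall, and the difference between strains 2.27. Of 192 other genes named here and tested, 69 also had a called difference of the change between the strains, beside 17.9% of all sequences, and many of them were named for their change in wildtype. OD600 near 5 in one strain and near 8 in the other cannot be told apart from the strain.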

How the results depend on the processing

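Counts of calls depended mainly on scaling. On library totals 2418 sequences were higher and 610 lower, with 298 higher by 2-fold or more. In limma on log2(TPM + 1) they were 2290 and 564, with 73 lower by 2-fold or more and 269 differences between strains below 0, and with a pseudocount of 0.1 again 2290 and 564, with 274 higher by 2-fold or more and 266 below 0. Correcting for coding length and GC content by an offset called 916 strain differences above and 890 below 0. DESeq2, its size factors, TMM from non-ribosomal genes, no filter, a minimum mean of 10 CPM, all 7 groups and only the wildtype libraries kept each count within 1.5 times the reported one. Leaving out 1 library gave 1013–1484 higher, 1044–1521 lower, 147–211 and 109–153 by 2-fold or more, and 420–831 and 328–709 strain differences above and below 0, the 328 without wildtype replicate 1 at low density. The lowest and highest hexose transporter share differences were −0.019 and 0.0204 percentage points. The general stress share was 0.0424 points higher in TPM, the opposite of reads. In TPM with either pseudocount ACC1 had 0.03, HXT3 0.01 and ADE16 0.08, and on library totals ADE16 had 0.01, all with signs opposite to those reported. With the offset HSP12 lost its call (0.45), and CNB1 (0.11), GCN4 (−0.19), MSN2 (−0.21) and PKC1 (−0.10) gained one. With only the wildtype libraries the calls of ACC1, ADE16, CPA1, HXT10, HXT3, HXT5, LUC7, PGM2, RGI1 and SNO1 were lost. The causes were not tested.

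With the replicate number as a block, 1315 sequences were higher and 1421 lower. Same-numbered wildtype libraries had correlations of deviations of −0.04, 0.61 and 0.46, and differently numbered ones had −0.58 to 0.29. Whether same-numbered libraries share more than a number was not tested. HSP60 was called with the block (−0.18, adjusted p = 0.0299), the 1 of 203 named genes compared whose call the block changed.

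Of 173 called genes named and compared, 149 kept direction and call under every setting run. Depth was 29.1–45.5 M reads, so read counting limits only the lowest genes; 3 libraries a group and the joint change of density and experiment limit the rest.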

Other observations

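Autophagy and vacuolar protease genes had 11 higher and 7 lower of 38, or 18 and 3 on library totals. ATG41 rose most (+1.99 ± 0.15, 28.9, 24 and 23.8 CPM at high and 6.7, 6.81 and 5.8 CPM at low density), and PRB1, for vacuolar protease B, fell (−1.09 ± 0.11), as did ATG5 (−0.96 ± 0.08). Histone genes rose in 5 of 10 and none fell, led by HHF1, for histone H4 (+0.97 ± 0.26), which shares 40.8% of its 31-base stretches with other genes. In phospholipid synthesis OPI3 (+0.77 ± 0.12) and CHO1 (+0.58 ± 0.09) rose, while INO1, for the first step to inositol, fell (−0.50 ± 0.14), a call lost without replicate 1 at low density (−0.40) and on library totals (−0.32). The stress-induced polyubiquitin gene UBI4 fell too (−0.64 ± 0.10). SSU1, for a sulfite pump, rose (+1.62 ± 0.14), with 266, 204 and 316 against 94.4, 86.5 and 74.2 CPM.

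Across all 6150 tested sequences the change had a Spearman correlation of −0.43 with the level at low density, −0.08 with coding length and −0.08 with GC content. The first of these shares the low-density libraries with the change, and sequences are not independent replicates, so these are descriptions.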
